A study of Mus musculus with 12 samples.

Results

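The 5 peak lists of KMT2D mutant mouse melanoma cells were compared with one another, to describe which histone marks share the same stretches of DNA and where the remaining H3K4me1 lies. All autosomal peaks of the libraries titled KMT2D Mutant for H3K4me1, H3K27ac, H3K4me3, H3K79me2 and H3K27me3 were taken, with no further selection, giving 77129 of the 173601 peaks of the series. The mutant lists held 5358 H3K4me1, 22083 H3K27ac, 13302 H3K4me3, 21756 H3K79me2 and 14630 H3K27me3 peaks on the 19 autosomes.

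Chromatin immunoprecipitation and sequencing (ChIP-seq) recovers the DNA bound to a modified histone, and a peak is a stretch where that DNA is enriched. The cells were cultured from tumours grown on the ears of iBIP mice. These mice, on a mixed FVB and B6 background, carry, among other engineered alleles, TetO-BRAFV600E with Rosa26-rtta, the conditional allele INK/ARFL/L, and Tyr-CreERT2. Tumours were started with doxycycline and with 4-OHT, the active form of tamoxifen, put on the ears; mutant cells came from iBIP;KMT2DL/L mice and the WT cells set beside them from iBIP;KMT2D+/+ mice. Both genotypes thus carried the same iBIP alleles, oncogenic BRAF included, and the Tyr promoter restricts the Cre to pigment cells. Each genotype had 1 library per mark. The labels do not say how many tumours or cultures stand behind a library, so values below have no replicate check and were not tested between genotypes. The lists carry neither gene names nor read counts, so the labelled melanoma identity could not be checked against marker genes, and read depth is unknown. For the same reason the lists cannot show the loss of KMT2D itself, and the genotypes stand as labelled.

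KMT2D is a methyltransferase of the COMPASS family that places a single methyl group on lysine 4 of histone H3 (H3K4me1), above all at enhancers. H3K27ac is laid down by the acetyltransferases p300 and CBP at active enhancers and promoters, and H3K4me3 marks promoters. H3K79me2 is written by DOT1L across the first part of transcribed gene bodies, and H3K27me3 by Polycomb repressive complex 2 over silenced genes. An H3K4me1 peak with H3K27ac and without H3K4me3 therefore has the usual marks of an active enhancer, and H3K4me1 beside H3K4me3 those of a promoter flank. KMT2C, the close relative of KMT2D, and other methyltransferases can also place H3K4me1.

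Marks were said to co-occur where their peaks shared at least 1 bp. Each share was set beside a uniform placement, the share that peaks of the same widths would reach if each were dropped anywhere on its own chromosome with equal chance; this was calculated exactly. Peaks of most marks gather in gene-rich DNA, which uniform placement does not take into account, so it is a scale and not a test. Intervals in brackets are exact 95% binomial intervals; they reflect counting error alone and treat peaks as independent, which neighbours are not.

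The remaining H3K4me1 lay mostly under H3K27ac. Of the 5358 peaks, 71.4% (70.2 to 72.6) overlapped H3K27ac, against 3.44% for uniform placement, a ratio of 20.8. H3K79me2 was overlapped by 59.1% (57.8 to 60.4), 13.6 times the uniform 4.35%. H3K4me3 was overlapped by 28.8% (27.6 to 30.0), 13.4 times the uniform 2.15%. H3K27me3 was the exception: 67 peaks, 1.25% (0.970 to 1.59), overlapped it, below the uniform 2.54% by a ratio of 0.493. H3K4me1 thus stood far above uniform placement with the 3 marks of active chromatin and below it with the Polycomb mark.

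Seen from the other marks, H3K4me1 was present at few peaks. An H3K4me1 peak was present at 15.0% (14.5 to 15.4) of H3K27ac peaks, 11.02% (10.5 to 11.6) of H3K4me3 peaks, 10.1% (9.68 to 10.5) of H3K79me2 peaks and 0.437% (0.337 to 0.558) of H3K27me3 peaks. Uniform placement gives 0.797%, 0.802%, 0.924% and 0.833%, so the first 3 lay 18.8, 13.7 and 10.9 times above it. The H3K4me1 list, with 5358 peaks, is much shorter than the others, which bounds these shares.

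The other pairs showed the promoter marks together and the Polycomb mark apart from the elongation mark. H3K4me3 peaks overlapped H3K27ac in 72.1% (71.3 to 72.8) of cases and H3K79me2 in 53.9% (53.1 to 54.8). H3K4me3 overlapped H3K27me3 in 15.9% (15.2 to 16.5), which is 5.35 times the uniform 2.96%. This pair of marks is called bivalent, though overlapping peak lists do not show that both lie on the same DNA molecules. H3K27ac overlapped H3K27me3 in 3.01% (2.79 to 3.24) of its peaks, close to the uniform 2.90%. H3K79me2 overlapped H3K27me3 in 1.70% (1.53 to 1.88), 0.553 times the uniform 3.08%. H3K79me2 and H3K27me3, like H3K4me1 and H3K27me3, thus met less often than uniform placement gives.

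**Figure D1:**
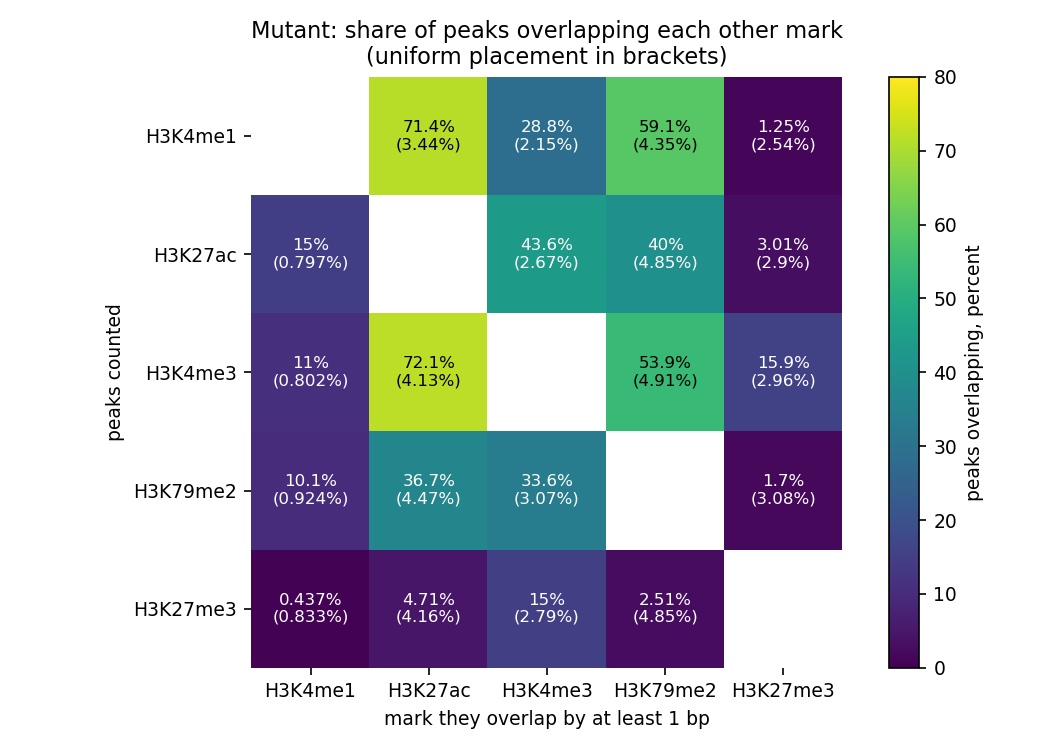
Share of the mutant autosomal peaks of each mark (rows) that overlap a peak of each other mark (columns) by at least 1 bp, in percent, with the share for uniform placement in brackets. The H3K4me1 row reaches 71.4% with H3K27ac and 59.1% with H3K79me2, and the cells that join H3K27me3 to H3K4me1 or H3K79me2 lie below their uniform shares.

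Measured in bases, the same order held. H3K4me1 covered 7.34 Mb of the autosomes, of which it shared 4.89 Mb (66.6%) with H3K27ac, 4.05 Mb (55.2%) with H3K79me2 and 1.55 Mb (21.1%) with H3K4me3. It shared 0.0592 Mb (0.806%) with H3K27me3. Independent uniform placement of the 2 lists of a pair would give 0.173 Mb with H3K27ac and 0.128 Mb with H3K27me3, so the measured values were 28.3 and 0.464 times as large. The largest overlap of any pair was that of H3K27ac with H3K4me3, at 20.4 Mb, which is 31.5% of the bases that either covers. H3K79me2 and H3K27me3 shared 0.367 Mb, 0.298 times the uniform value and the lowest ratio of the 10 pairs.

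Combinations of 3 or more marks on the same bases were few in length. The 5 lists together covered 157.7 Mb, or 6.39% of the autosomes. Of these bases 77.4% carried 1 mark, 16.03% carried 2, 5.95% carried 3 and 0.657% carried 4. Of the combinations of 3 marks, the one with most shared bases was H3K27ac, H3K4me3 and H3K79me2, the usual set of an active promoter, with 7.49 Mb. H3K4me1 with H3K27ac and H3K79me2 shared 2.58 Mb, H3K4me1 with H3K4me3 and H3K79me2 1.24 Mb, and H3K4me1 with H3K27ac and H3K4me3 1.15 Mb. The 3 combinations of 3 marks that hold both H3K4me1 and H3K27me3 were short, at 18.7 kb with H3K27ac, 26.9 kb with H3K4me3 and 4.69 kb with H3K79me2. Their ratios to independent uniform placement of the 3 lists were 5.62, 13.5 and 1.04. Each includes the ratio of H3K4me1 with the active mark, which without H3K27me3 was higher, at 28.3, 15.1 and 17.1. Values above 1 thus do not show that H3K27me3 joined these pairs more often than uniform placement gives. The 3 active marks with one another and with H3K4me1 lay far higher, for example 437.5 times with H3K4me1, H3K27ac and H3K79me2. Of the combinations of 4 marks, the 4 without H3K27me3 shared 904 kb, the 4 without H3K4me1 shared 122.0 kb, and the 3 that pair H3K4me1 with H3K27me3 shared between 1.37 and 6.91 kb. For these 3 the ratio to uniform placement was between 10.9 and 123.5, and for the 4 without H3K27me3 it was 9525. Here too the ratios include those of the marks other than H3K27me3. H3K4me1 with 2 active marks had ratios between 351.7 and 443.1. With 4 or 5 lists uniform placement gives under 1 kb, so these ratios rest on small lengths. No autosomal base of the mutant lay under all 5 marks, where uniform placement gives 2.23 bp. The WT lists, with an H3K4me1 cover of 24.5 Mb, held 18 such stretches with 8.37 kb in all, and 7 of them with 3.57 kb lay under the strongest 5358 WT H3K4me1 peaks. This difference was not tested.

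Peak by peak, 584 H3K4me1 peaks (10.9%) overlapped no other mark, 2061 (38.5%) overlapped 1, 1599 (29.8%) overlapped 2 and 1113 (20.8%) overlapped 3. A single peak overlapped all 4 others. All 16 combinations that 4 other marks allow were found. H3K27ac alone was the most common, with 1331 peaks or 24.8% (23.7 to 26.0). H3K27ac with H3K79me2 followed with 1173 peaks or 21.9% (20.8 to 23.0), and H3K27ac with H3K4me3 and H3K79me2 with 1095 or 20.4% (19.4 to 21.5). H3K79me2 alone had 692 peaks (12.9%) and no other mark 584 (10.9%). H3K27ac with H3K4me3 had 199 (3.71%) and H3K4me3 with H3K79me2 had 197 (3.68%). The other 9 combinations had between 1 and 20 peaks each, and 8 of those 9 hold H3K27me3.

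**Figure D2:**
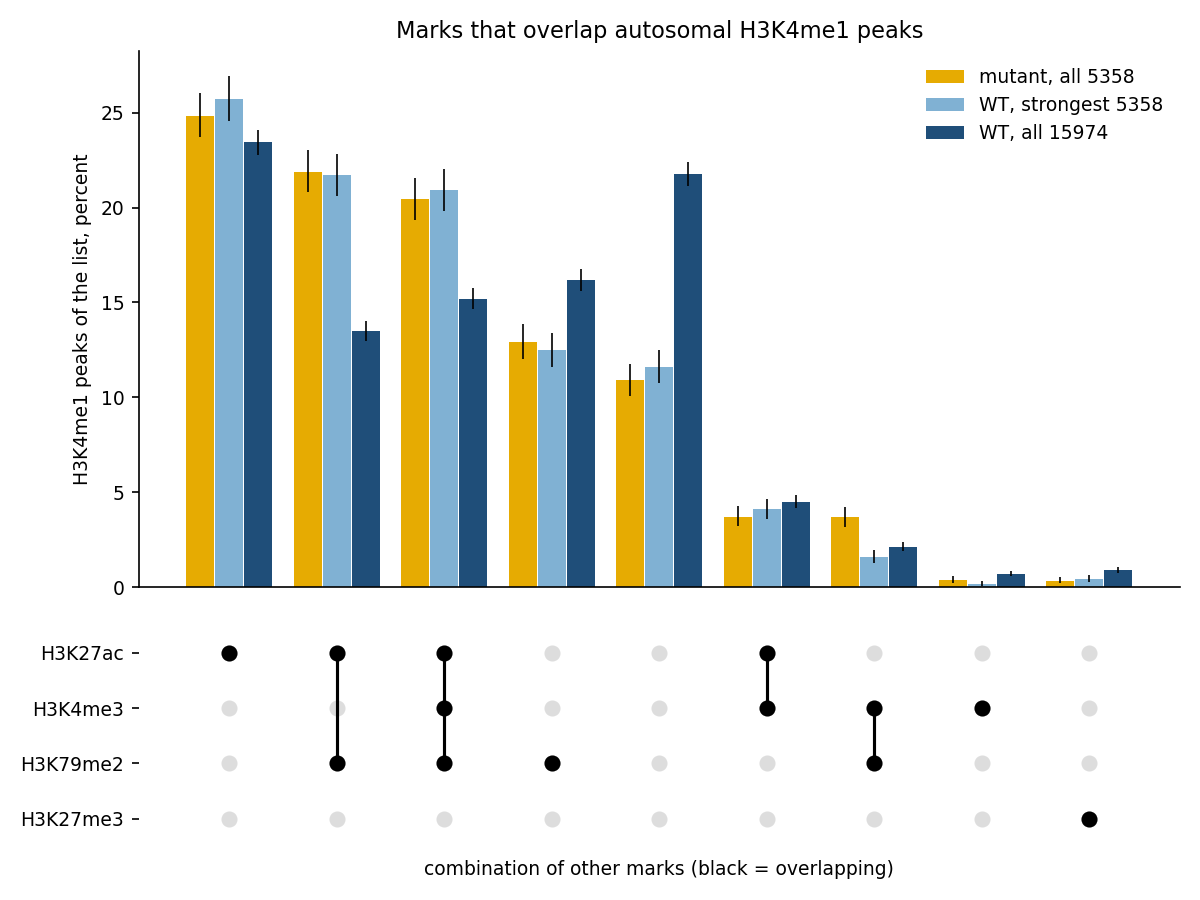
Share of autosomal H3K4me1 peaks with each of the 9 most numerous combinations of other marks, in percent of each list, with exact 95% binomial intervals as bars; black dots below name the overlapping marks. The mutant list and the strongest 5358 WT peaks give similar bars for most combinations, for example 21.9% and 21.7% with H3K27ac and H3K79me2. They differ for H3K4me3 with H3K79me2 (3.68% against 1.57%). For H3K4me3 alone the shares are 0.373% (20 peaks) and 0.168% (9 peaks), with overlapping intervals. All 15974 WT peaks give a larger share without any other mark (21.8% against 10.9%).

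Grouped by the usual meaning of the marks, 47.1% (45.7 to 48.4) of the H3K4me1 peaks had H3K27ac without H3K4me3, the enhancer pattern. Another 28.8% had H3K4me3, and 24.2% (23.0 to 25.3) had neither. H3K4me3 without H3K27ac was found at 4.40% (3.87 to 4.99). H3K27ac, H3K4me3 or H3K79me2 was present at 88.8% (87.9 to 89.6) of all H3K4me1 peaks.

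Among H3K4me1 peaks, H3K4me3 went with H3K79me2. H3K79me2 was present at 84.2% (82.3 to 86.0) of the H3K4me1 peaks with H3K4me3 and at 49.0% (47.4 to 50.6) of those without it. H3K4me3 on its own, with none of the other 3 marks, was found at 20 H3K4me1 peaks (0.373%); the product of the shares of the single marks would give 3.32%. H3K27ac also went with H3K4me3, at 84.7% (82.8 to 86.4) against 66.1% (64.5 to 67.6). H3K27ac and H3K79me2 were linked less: H3K27ac was present at 71.7% (70.1 to 73.3) of H3K4me1 peaks with H3K79me2 and at 71.0% (69.0 to 72.9) of those without it. Away from H3K4me3 it was the lower of the 2 with H3K79me2, at 62.9% (60.7 to 65.1) against 69.1% (67.0 to 71.1).

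Stronger and wider H3K4me1 peaks overlapped the 3 active marks more often. Scores are the authors' own value per peak and were used here only to rank peaks within the list. The list was cut into 10 equal groups by score. From the weakest to the strongest group, the share with H3K27ac went from 59.0% (54.7 to 63.2) to 88.6% (85.6 to 91.2). The share with H3K79me2 went from 51.7% to 76.3%, and that with H3K4me3 from 26.3% (22.6 to 30.3) to 33.1% (29.1 to 37.2). The share with no other mark went from 16.8% (13.7 to 20.2) to 2.24% (1.16 to 3.89). H3K4me1 peak width moved with the score, from a median of 823 bp in the weakest group to 2527 bp in the strongest, and a wider peak overlaps more by position alone. By width, the share with H3K27ac was 53.8% in the narrowest of 5 equal groups and 88.0% in the widest. H3K27me3 showed no steady direction over the 10 score groups. It was overlapped by 6 of 536 peaks (1.12%) in the weakest, 11 of 536 (2.05%) in group 6 and 1 of 535 (0.187%) in the strongest. By width its share was 0.933% in the narrowest group and 1.49% in the widest. Among the 7 most numerous combinations the median width was 1012 bp with no other mark and with H3K4me3 and H3K79me2, 1052 bp with H3K79me2 alone, 1156 bp with H3K27ac alone and 1183 bp with H3K27ac and H3K4me3. It was 1267 bp with H3K27ac, H3K4me3 and H3K79me2 and 1326 bp with H3K27ac and H3K79me2.

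**Figure D3:**
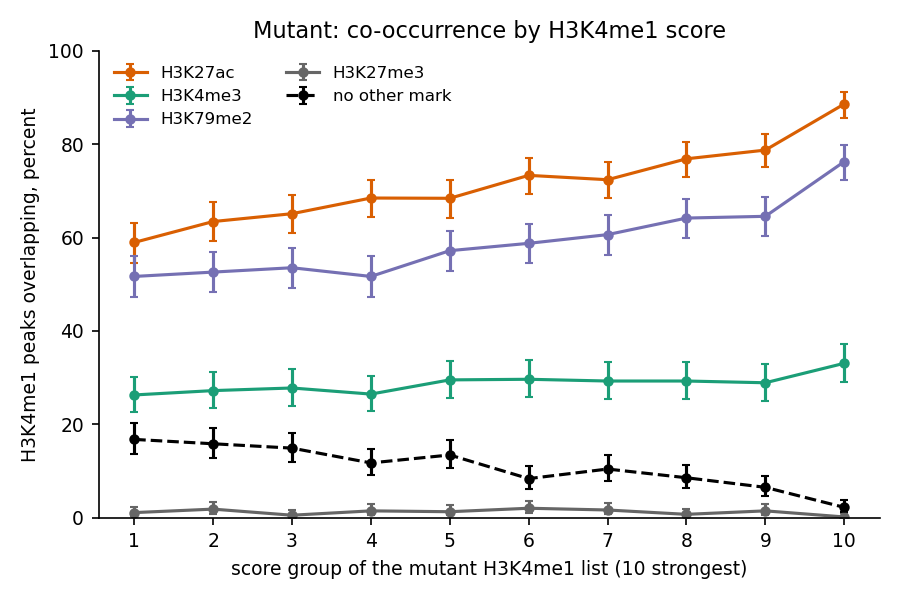
Share of mutant H3K4me1 peaks that overlap each other mark, or none, in 10 equal groups of the list ordered by score, in percent with exact 95% binomial intervals. H3K27ac goes from 59.0% to 88.6% and no other mark from 16.8% to 2.24% between the weakest and the strongest group, while H3K4me3 stays between 26.3% and 33.1%.

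H3K4me1 lay wholly inside peaks of H3K27ac and H3K79me2 more often than inside those of H3K4me3, whose edges it more often crossed. Of the H3K4me1 peaks that overlapped H3K27ac, 59.5% (57.9 to 61.1) lay wholly inside a single H3K27ac peak. Inside a single H3K79me2 peak lay 74.8% (73.3 to 76.3) of those that overlapped that mark. For H3K4me3 the figure was 33.0% (30.7 to 35.4), and 64.9% (62.5 to 67.3) crossed an edge. The centre of the H3K4me1 peak was inside the H3K4me3 peak in 76.0% of the overlapping cases, against 88.5% for H3K27ac and 91.2% for H3K79me2. Seen from H3K4me3, H3K4me1 covered 3.17% of the peaks at their centre and more beside it, up to 4.40% at 1100 bp from the centre. The WT lists had this dip too, with 9.69% at the centre and 12.0% at 800 bp. Seen from H3K27ac peaks without H3K4me3, H3K4me1 was highest at the centre itself, at 10.1%.

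Around H3K4me1 the 3 active marks differed in reach. H3K27ac lay over 63.2% of H3K4me1 centres and over 20.8% of positions 10000 bp away. H3K79me2 fell off less, from 53.9% at the centre to 30.2% at 10000 bp, and H3K4me3 went from 21.9% to 6.08%. H3K27me3 lay over 0.840% of the centres and 1.20% of positions 10000 bp away, below its cover of the autosomes as a whole, 1.53%.

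**Figure D4:**
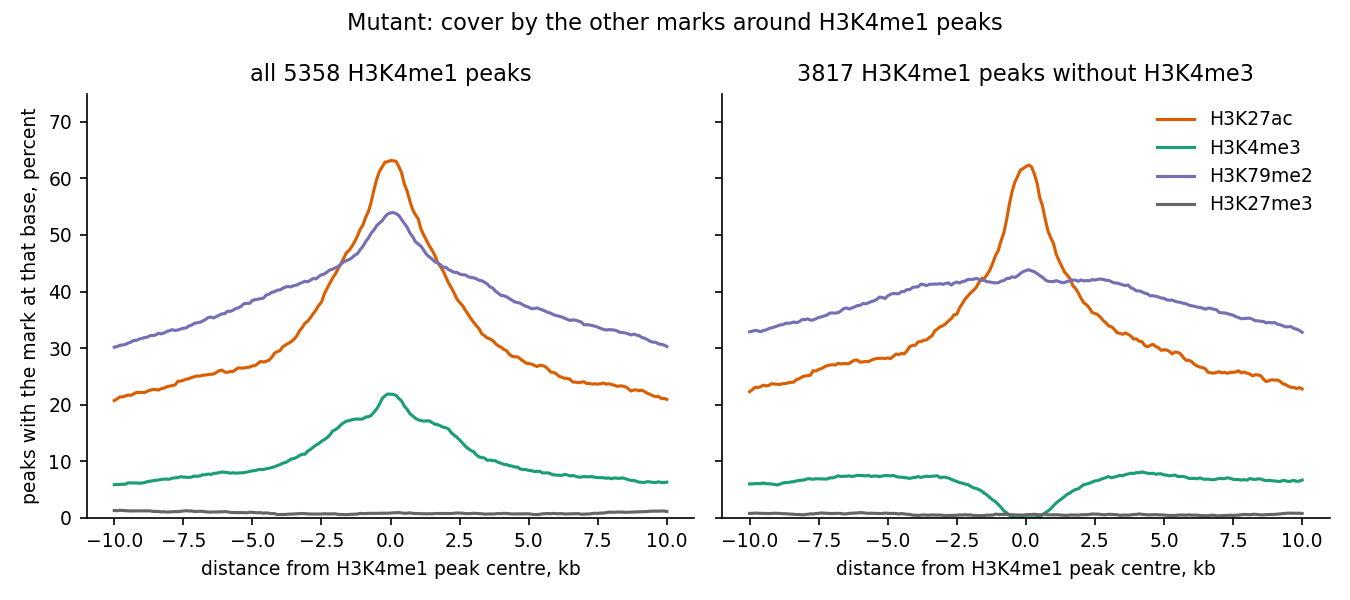
Share of mutant H3K4me1 peaks at which each other mark covers the base at a given distance from the H3K4me1 centre, in percent, for all peaks (left) and for those without H3K4me3 (right). H3K27ac forms a narrow summit (63.2% at the centre of all peaks) on the broader H3K79me2 (53.9%), and the gap in H3K4me3 on the right is fixed by the choice of those peaks.

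Distances to the nearest peak were measured as well. The median H3K4me1 peak was 0 bp from H3K27ac and from H3K79me2, 5669.5 bp from H3K4me3 and 94736.5 bp from H3K27me3. Within 10000 bp, 89.98% of H3K4me1 peaks had an H3K27ac peak (uniform placement 13.7%), 74.1% an H3K79me2 peak (11.4%) and 58.8% an H3K4me3 peak (11.5%). For H3K27me3 it was 6.53% against 8.46%. At 100000 bp the order for H3K27me3 turned, with 52.1% against 30.97%, so the share lay below uniform placement at 10000 bp and above it at 100000 bp. H3K4me1 peaks also lay near one another: the next H3K4me1 peak was a median of 9243 bp away, and 51.2% had it within 10000 bp, where uniform placement gives 3.75%.

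Neighbouring peaks of different marks were then chained into regions, each a run of bases under at least 1 mark. There were 49024 regions, of which 3920 held H3K4me1. The most common kind among these held H3K4me1, H3K27ac, H3K4me3 and H3K79me2, with 1577 regions and 24.5 Mb in all. H3K4me1 with H3K27ac came next, with 989 regions of a median 2.81 kb, and H3K4me1 alone had 584. H3K4me1 with H3K27ac and H3K79me2 made up 332 regions. Regions with all 5 marks numbered 24, although no single base had all 5. A peak that does not itself overlap H3K4me3 can belong to a region that holds it, so regions and peaks count this combination differently.

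Mutant H3K27ac peaks with an H3K4me1 peak were stronger and wider than those without. Among the 12463 H3K27ac peaks without H3K4me3, 1934 or 15.5% (14.9 to 16.2) overlapped H3K4me1. Their median score was 414.3 and their median width 2479.5 bp, against 195.6 and 1474 bp for those without H3K4me1. The share was close to that of H3K27ac peaks with H3K4me3, at 14.2% (13.5 to 15.0). It was lower far from promoters: 19.3% (17.6 to 21.0) within 5000 bp of H3K4me3, 19.5% (18.2 to 20.8) between 5000 and 20000 bp, 13.3% (12.4 to 14.2) between 20000 and 100000 bp and 8.60% (7.24 to 10.1) beyond. The WT lists had both traits. Their medians were 296.6 and 1803 bp with H3K4me1 and 178.1 and 1192 bp without. The WT share was 41.5% within 5000 bp of H3K4me3 and 23.2% beyond 100000 bp. A wider H3K27ac peak meets H3K4me1 more often by position alone, and the part of width was not tested.

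H3K27ac peaks away from H3K4me3 had H3K4me1 more often where H3K79me2 was also present. Of the H3K27ac peaks without H3K4me3, 34.8% (32.9 to 36.7) of the 2559 with H3K79me2 overlapped H3K4me1, against 10.5% (9.94 to 11.2) of the 9904 without it. The peaks with H3K79me2 had a somewhat higher H3K27ac score, with medians of 241.4 and 207.1. In 5 equal groups by score the 2 shares were 17.1% and 3.69% in the weakest and 55.8% and 25.5% in the strongest, and their means over the groups 32.8% and 10.8%. In 5 groups by width the means were 32.4% and 10.9%. The peaks with H3K79me2 also lay nearer to H3K4me3, at a median of 10417 bp for those with H3K4me1 and 12378 bp for those without. For the peaks without H3K79me2 these medians were 23414.5 and 28324.5 bp. The parts of score, width and this distance in the gap were not tested. The WT lists had the gap too, at 60.0% (58.2 to 61.7) and 29.5% (28.6 to 30.3). Whether the sizes of the mutant and WT gaps differ was not tested.

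**Figure D5:**
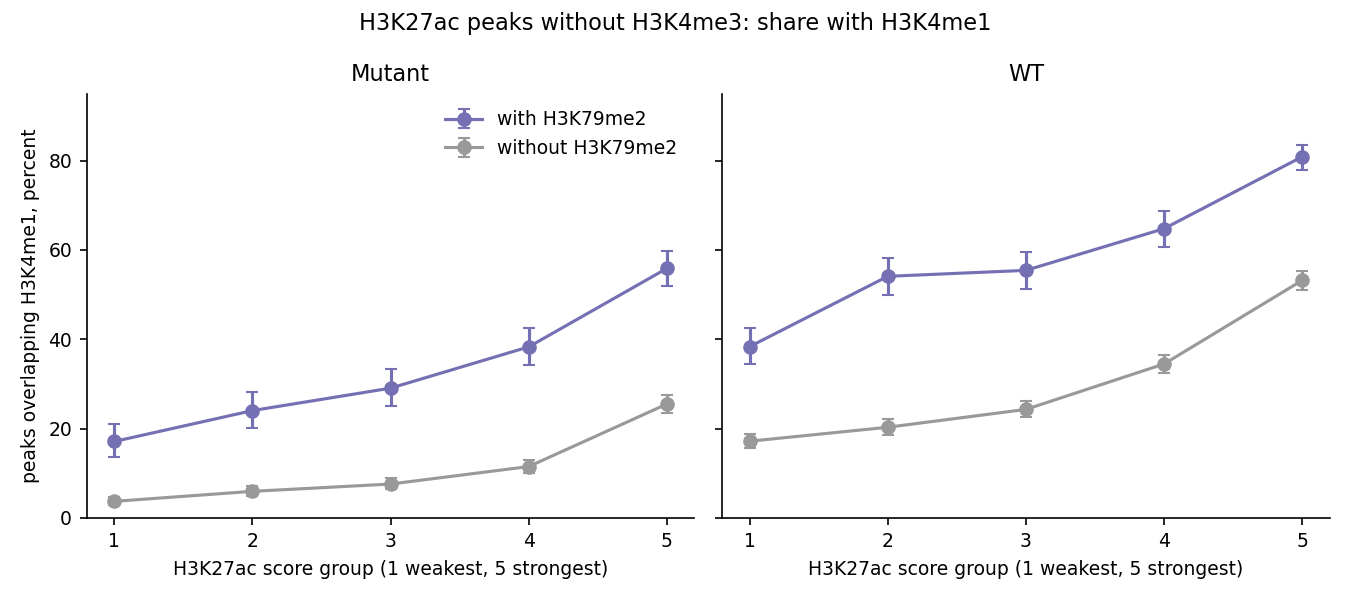
Share of H3K27ac peaks without H3K4me3 that overlap H3K4me1, in percent with exact 95% binomial intervals, in 5 equal groups by H3K27ac score, for peaks with and without H3K79me2 in the mutant (left) and WT (right). The peaks with H3K79me2 lie above those without it in each of the 5 groups of both genotypes, from 17.1% against 3.69% to 55.8% against 25.5% in the mutant.

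Some H3K27ac and H3K79me2 domains held many H3K4me1 peaks. Of the mutant H3K27ac peaks, 12.8% held 1, 1.64% held 2, and 111 held 3 or more, the latter with a median width of 11691 bp. Among H3K79me2 peaks, 209 held 3 or more, with a median width of 24628 bp, and the most in a single H3K79me2 peak was 18. Coordinates here and below are those of the lists, on the mouse build mm9 and counted from 1. The H3K27ac peak with most H3K4me1 peaks was chr15:77626923-77655299, 28377 bp long, with 8 H3K4me1 peaks that covered 24914 bp of it. H3K79me2 covered 27367 bp of it and no other mutant mark was present. The WT lists had H3K27ac over 27686 bp, H3K4me1 over 12135 bp and also H3K4me3 over 11754 bp of the same stretch. The H3K27ac peaks chr2:128238270-128265610 and chr4:138781498-138798739 held 7 each, as did 1 more, and had both H3K4me3 and H3K79me2 over part or all of their length.

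The highest-scoring H3K4me1 peaks of the common combinations are extremes and not typical members, and those named here were wider than the median peak of their combination. The best of the whole list lay in that chr15 domain, at chr15:77649003-77655320 (score 1307), with H3K27ac over 6297 of its 6318 bp and H3K79me2 over all of it. No WT H3K4me1 peak touched it, while WT H3K27ac covered 5883 bp and WT H3K4me3 1928 bp. With H3K27ac, H3K4me3 and H3K79me2 the best were chr7:132700548-132708927 and chr2:167764267-167771655, where H3K27ac and H3K79me2 covered the full 8380 and 7389 bp and H3K4me3 4906 and 3379 bp. With H3K27ac alone they were chr14:26405666-26409762 and chr5:143817468-143821892, and in both the nearest H3K79me2 lay within 2 kb, at 490 and 1750 bp. The widest H3K4me1 peak of the mutant, chr4:134284729-134293823 with 9095 bp, also had H3K27ac alone, over 4837 bp, and lay 23500 bp from H3K4me3.

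Of H3K4me1 peaks with H3K79me2 alone, chr2:52274227-52277398 (3172 bp, all under H3K79me2) lay 209 bp from H3K4me3 and 1269 bp from H3K27ac, and chr11:32546247-32548365 lay 1675 and 1745 bp from them. Both lay nearer than most of the class. The median H3K4me1 peak with H3K79me2 and neither H3K27ac nor H3K4me3 was 3443 bp from H3K27ac and 6617 bp from H3K4me3. Within 1000 bp, 24.1% of the class had an H3K27ac peak (uniform placement 4.60%) and 20.1% an H3K4me3 peak (3.05%). With H3K4me3 and H3K79me2 and no H3K27ac, the best was chr9:70499896-70503682, where H3K4me3 covered 195 bp and the nearest H3K27ac was 121 bp away. A peak counted as lacking H3K27ac can thus lie close to it.

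H3K4me1 peaks without any other mark were weaker than the list as a whole. The 584 peaks had a median score of 116.4, against 134.7 for the whole list. By their choice none touches another mark; the nearest was a median of 5210 bp away. The nearest H3K27ac was a median of 11123.5 bp away, against 3443 bp for the H3K4me1 peaks with H3K79me2 and neither H3K27ac nor H3K4me3, which do not touch it either. Of the 584, 62.3% had some other mark within 10000 bp, against 23.8% for uniform placement. Of the 584, 50.5% (46.4 to 54.6) overlapped a WT H3K4me1 peak and 27.6% (24.0 to 31.4) overlapped at least 1 of the other 4 WT marks, mostly H3K27ac (19.7%). The best, chr14:31061813-31064523 (2711 bp, score 440.4), was 96955 bp from H3K27me3 and farther from the rest, and WT H3K4me1 covered 2069 bp of it with no other WT mark. The next, chr10:83873347-83875810, lay under WT H3K4me1 over its full 2464 bp. The 3 H3K4me1 peaks farthest from any other mark, chr3:151106341-151107083, chr13:16550642-16551387 and chr6:147761000-147762116, were 469725, 434482 and 335143 bp away from it. They had low scores, 98.1, 111.6 and 120.9, and no WT list had a peak on them.

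The 67 H3K4me1 peaks with H3K27me3 were a mixed group. H3K4me3 was present at 30 of them (44.8%, 32.6 to 57.4), H3K27ac at 29 (43.3%, 31.2 to 56.0) and H3K79me2 at 10 (14.9%, 7.40 to 25.7). With H3K27me3 alone there were 18, the best at chr13:22092523-22093681, which H3K27me3 covered over its full 1159 bp. With H3K4me3 and H3K27me3 there were 14, the best at chr11:76808876-76811059. The only H3K4me1 peak that touched all 4 other marks was chr10:80394653-80396924 (2272 bp, score 182.3): H3K4me3 covered all of it, H3K27ac 2206 bp, H3K27me3 1471 bp and H3K79me2 65 bp. The H3K4me1 peak with H3K27ac and H3K27me3 that scored best, chr10:80396975-80399607, begins just beyond its end. The WT lists had H3K4me1 and H3K27ac but no H3K27me3 on either.

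Across chromosomes the composition of H3K4me1 varied moderately. The share with H3K27ac ran from 62.3% on chromosome 13 to 77.7% on chromosome 15, and that with H3K79me2 from 43.4% on chromosome 13 to 70.9% on chromosome 5. The share with H3K4me3 ran from 19.8% on chromosome 13 to 37.1% on chromosome 11. The peaks with no other mark ran from 7.51% on chromosome 11 to 17.1% on chromosome 6. H3K4me1 density ran from 1.37 peaks per Mb on chromosome 3 to 4.05 on chromosome 11, the chromosome with the highest H3K4me3 share.

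Set beside WT, mutant H3K4me1 overlapped the active marks more often when whole lists were compared. Against as many of the strongest WT peaks the shares were about equal, while the ratios to uniform placement were higher in the mutant. Of all 15974 autosomal WT H3K4me1 peaks, 57.2% (56.4 to 58.0) overlapped WT H3K27ac, 24.1% (23.4 to 24.8) H3K4me3, 47.3% (46.5 to 48.1) H3K79me2 and 2.63% (2.39 to 2.89) H3K27me3, and 21.8% (21.1 to 22.4) no other mark. In the mutant these shares were 71.4%, 28.8%, 59.1%, 1.25% and 10.9%. Among the 5358 WT peaks with the highest scores, as many as the mutant list holds, they were 73.0% (71.8 to 74.2), 27.9% (26.7 to 29.1), 56.9% (55.6 to 58.3), 1.75% (1.42 to 2.14) and 11.6% (10.7 to 12.5). For H3K27ac the mutant share was above that of the whole WT list and slightly below that of its strongest peaks. Choosing WT peaks by score also favours wide ones: their median width was 801.5 bp in the weakest of 10 score groups and 3229 bp in the strongest. With each whole list cut into 5 groups by width, the H3K27ac share was 53.8% in the mutant and 41.1% in WT in the narrowest. In the widest it was 88.0% and 77.8%. The parts of list length, score and width were not tested. Uniform placement of the strongest WT peaks gives 4.36% with H3K27ac, 2.74% with H3K4me3 and 5.96% with H3K79me2. For the mutant it gives 3.44%, 2.15% and 4.35%. The ratios to uniform placement were 16.7, 10.2 and 9.56 for the strongest WT peaks and 20.8, 13.4 and 13.6 for the mutant. The enhancer pattern, H3K27ac without H3K4me3, was found at 47.1% in the mutant, 37.0% in all WT peaks and 47.5% (46.2 to 48.9) of the strongest. H3K4me3 without H3K27ac stood further apart, at 4.40% (3.87 to 4.99) in the mutant against 2.44% (2.05 to 2.89) of the strongest WT peaks. These are 1 library each, and no difference was tested.

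The combination also went with whether an H3K4me1 peak was found in both genotypes. Of the mutant H3K4me1 peaks 72.1% (70.9 to 73.3) overlapped a WT H3K4me1 peak. This was 87.2% (85.2 to 89.1) for those with H3K27ac and H3K79me2, 76.3% with H3K4me3 as well and 74.0% (71.6 to 76.3) with H3K27ac alone. It was 58.5% (54.8 to 62.2) with H3K79me2 alone and 50.5% with no other mark. The median mutant scores of these classes were 158.4, 144.6, 131.2, 125.3 and 116.4, in the same order. Those with H3K27ac and H3K4me3 stood outside that order, with a median score of 122.9 and a share of 80.4%. Seen from the WT side, 40.9% (38.8 to 43.0) of WT H3K4me1 peaks with H3K27ac and H3K79me2 had a mutant H3K4me1 peak. The share was 38.8% (36.8 to 40.7) with H3K4me3 as well and 23.6% (22.2 to 24.96) with H3K27ac alone. It was 16.5% (15.1 to 18.0) with H3K79me2 alone and 8.63% (7.72 to 9.62) with no other mark. These shares were not set against a share over the whole WT list. The median WT scores of these classes were 227.5, 192.8, 170.3, 148.0 and 134.5, in the same order. Not every WT class followed that order. WT H3K4me1 peaks with H3K4me3 and H3K79me2 had a median score of 149.9, and 25.6% had a mutant H3K4me1 peak. With H3K27ac and H3K4me3 these values were 154.35 and 18.1%. The part of score in these shares was not tested here.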

How the data were processed

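Members, combinations and named regions were chosen with earlier results of these data known. The authors deposited 1 peak list per library; the submitters' processing notes name mm9 as the build and deepTools, MACS2, MACS and Bowtie as tools, with no versions or roles. The deposited H3K4me1, H3K27ac and H3K4me3 lists give a score per peak, which reads as 10 times the −log10 of a p-value, with a lowest value of 90. The deposited H3K79me2 and H3K27me3 lists give a fold enrichment (ratio), a −log10 p, a −log10 q and a score per peak, and were ranked by −log10 q. Of the 12 samples, the 2 input libraries were not used here. The series text speaks of 6 modifications, of which 5 were analysed here. Read depth is unknown, and a missing peak means only that none passed the authors' threshold.

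Overlap needed at least 1 bp. Uniform placement was calculated exactly per peak and chromosome, from position 1 to the farthest peak end in any list, summing to 2467 Mb. Unsequenced and unmappable stretches were not removed from it. Code for overlaps and distances was tested on simulated data against a base-by-base count. Shares have exact (Clopper-Pearson) 95% intervals. Named regions were the best-scoring H3K4me1 peak of each combination and the next best of the most numerous 6, the 3 widest, the 3 farthest from other marks, and the 3 H3K27ac peaks holding most H3K4me1 peaks; stretches under all 5 marks would have been named too. An annotation of mm9 was not used here, so no genes were named and no sequence is printed. Alternatives were a stricter threshold (score of 100, −log10 q of 3), cover of 50% of the H3K4me1 peak, peaks within 1000 bp, joining across 1000 bp, chromosome X added, and lists of equal length. The strongest WT H3K4me1 peaks were added after seeing the data. Calculations ran in Python 3.11.15 with scipy 1.17.1 and numpy 2.4.6, and plots were drawn with matplotlib 3.10.9.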

Additional observations from a re-analysis of the deposited data

Results flagged for a closer look

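Chromosome X lies outside the autosomal comparison and carried signal of 4 of the 5 marks in the mutant: 257 H3K27ac peaks, 385 H3K4me3 peaks, 346 H3K79me2 peaks and 82 H3K27me3 peaks. H3K4me1 had 0 peaks there of 5358, which allows a share of up to 0.0560% when 3 peaks are taken as the limit of a count of 0, or 0.0688% by the exact 95% interval. The WT H3K4me1 list had 7 peaks on chromosome X of 15981 (0.0438%), beside 298 WT H3K27ac peaks.

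H3K4me1 and H3K27me3 met less often than uniform placement gives in the mutant, by a ratio of 0.493, and more often in WT, by a ratio of 1.28. The difference was not tested, with 1 library per genotype. Among the strongest 5358 WT H3K4me1 peaks the ratio was 0.706, on the same side of uniform placement as in the mutant.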

How the results depend on the processing

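The mutant shares of H3K4me1 peaks were recomputed under 6 alternatives, and each is in percent of the H3K4me1 peaks. Adding chromosome X could not move them, since the mutant H3K4me1 list has no peak there. The other 5 alternatives left a share within its counting interval in 1 or 2 of 5 cases. Elsewhere, with 50% of the H3K4me1 peak covered the shares were 63.3 for H3K27ac, 21.8 for H3K4me3, 53.5 for H3K79me2, 0.821 for H3K27me3, 13.6 for no other mark and 48.6 for H3K27ac without H3K4me3. With peaks within 1000 bp counted they were 78.9, 35.8, 62.7 and 1.62 for the 4 marks in that order and 8.40 for no other mark. With lists of equal length, where each list kept its 5358 strongest peaks and the other marks so lost most of theirs, they were 38.7, 19.5, 44.6 and 0.653, with 31.9 for no other mark and 28.6 for H3K27ac without H3K4me3. Joining peaks across 1000 bp gave 30.9 for H3K4me3, 57.4 for H3K79me2 and 45.2 for H3K27ac without H3K4me3, and the stricter threshold gave 72.7 for H3K27ac; the causes were not tested. The sign of mutant minus WT was the same under these 6 alternatives for each of the 6 shares, for H3K27ac from 4.24 points with lists of equal length to 15.7 with 50% covered. With the WT H3K4me1 list alone limited to its strongest peaks, the H3K27ac and H3K4me3 and H3K79me2 shares of WT were 73.0, 27.9 and 56.9. There the sign turned for H3K27ac, with 71.4 in the mutant. It also turned for H3K27ac without H3K4me3, with 47.1 in the mutant and 47.5 in WT, and stayed for the other shares. No paired analysis was possible because each genotype had 1 library per mark and no test was made. Unknown read depth limits each comparison of list lengths.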

Other observations

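The other marks differed in how often they stood alone in the mutant. H3K27me3 had no other mark at 83.7% (83.1 to 84.3) of its 14630 peaks, H3K79me2 at 57.6% (57.0 to 58.3), H3K27ac at 39.7% (39.1 to 40.4) and H3K4me3 at 11.4% (10.9 to 12.0). The most common combination of H3K4me3 peaks was with H3K27ac and H3K79me2, at 4978 peaks or 37.4% (36.6 to 38.3). The median width was 2551.5 bp in that combination and 1463 bp for H3K4me3 alone. With H3K4me1 as well there were 1211 H3K4me3 peaks, with a median width of 2988 bp.

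H3K27me3 peaks that met H3K4me3 were longer than those alone. The 1520 H3K27me3 peaks with H3K4me3 and no other mark had a median width of 3940 bp, and the 12245 alone had 960 bp. H3K27me3 peaks with H3K4me3, H3K27ac and H3K79me2 but no H3K4me1 numbered 206, more than the 51 with H3K79me2 alone. Lone H3K79me2 peaks were also short (median 969 bp), and the 1462 H3K79me2 peaks with H3K4me1, H3K27ac and H3K4me3 were long (median 7829 bp). A longer peak meets other marks more often by position alone, and the part of length in these values was not tested.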
